A study of Mus musculus with 12 samples.

Results

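Stromal-vascular cells of subcutaneous fat were compared with those of intraabdominal fat, each kept on plates for 16 h and then lysed for RNA. The groups compared are 6 of the 12 arrays of the study, the 3 titled as subcutaneous and the 3 titled as intraabdominal stromo-vascular fraction. The spread behind the p-values was estimated over all 12. Every one of the 12422 non-control probe sets was considered. The animals were 10 C57BL/6 males, an inbred laboratory strain, aged 42 to 49 days, with no genetic change or drug given in the labels. Flank fat gave the subcutaneous cells and epididymal fat, which surrounds the epididymis in the abdomen, gave the intraabdominal cells. Fat of each depot was pooled across mice, broken up in 45 min with 1 mg/ml collagenase, and spun so that the fat cells floated off. The pelleted cells went through lysis of red cells, were plated at 60000 cells per square cm in medium with fetal calf serum, and were washed before extraction. The other 6 arrays, 3 per depot, measured the floated adipocytes, which were not cultured. Because the mice were pooled and the labels do not say whether the 3 replicates of a group were separate pools, p-values cover only the spread between samples as deposited, which may be technical.

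The stromal-vascular fraction is what remains of fat tissue once the lipid-filled cells are removed. It holds fat cell precursors, fibroblasts, endothelial cells, the smooth muscle and pericytes of vessel walls, and macrophages and other leukocytes. Intraabdominal fat is also covered by mesothelium, the thin epithelium that lines the abdominal cavity. Plating enriches the cells that attach to plastic, and attached stromal cells spread, secrete matrix, chemokines and proteases, and form actin stress fibres. The depots arise from different parts of the embryo, and their cells keep transcription factors of that origin in culture.

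The markers on the arrays matched the label of a plated stromal fraction. Pdgfra, the receptor that marks fat cell precursors and fibroblasts, read 17114 to 18081 on the subcutaneous and 15439 to 17530 on the intraabdominal arrays, against 104 to 1062 on the adipocyte arrays. Adiponectin, Adipoq, the hormone of mature fat cells, read 192 to 278 and 139 to 143 in the plated cells and at least 119291 on every adipocyte array. Markers of circulating lymphocytes were dim, with Cd3e at 107 to 157 and 88.6 to 114. The keratinocyte markers Krt5, Krt14 and Epcam were also dim, at most 330 on any plated array, and the epididymal markers Adam7 and Lcn5 were at most 243. Summed over 16 epididymis and testis markers, the signal was 4190 to 6022 on subcutaneous and 2886 to 5258 on intraabdominal plated arrays. Median signals were 520 ± 12.9 in subcutaneous and 498 ± 12.6 in intraabdominal cells (SD, n = 3 each), and the actin 3' to 5' ratio, a measure of RNA breakdown, was 1.22 ± 0.02 and 1.17 ± 0.05. The same ratio for Gapdh was 1.12 to 1.21 on the subcutaneous and 0.995 to 1.08 on the intraabdominal arrays, with no overlap. Its part in the depot differences was not tested. Arrays of a depot correlated at r = 0.967 to 0.976 across probe sets and arrays of different depots at 0.938 to 0.952, a description over probe sets that are not independent. Signals below are linear intensities scaled to a common level on each array. Values are given in the order of replicates 1, 2 and 3. The labels do not say whether such numbers match mice between depots.

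Depot differences were wide. Of 8695 probe sets tested with limma, 1125 (12.9%) differed at a Benjamini-Hochberg adjusted p under 0.05, and 564 (6.49%) of them were higher in subcutaneous and 561 (6.45%) in intraabdominal cells. With 1 probe set per gene, 893 of 6436 genes (13.9%) were called, 445 (6.91%) higher in subcutaneous and 448 (6.96%) higher in intraabdominal cells. In 889 of the 893 the 3 arrays of one depot all lay above the 3 of the other, which was also true of 38.8% of all genes and 37.3% of all probe sets tested. All log2 differences below are subcutaneous minus intraabdominal, taken on log2 of the signal plus 40.09, so folds of dim genes are understated. The median over all genes was 0.05. Among called genes 201 were more than 2-fold and 45 more than 4-fold higher in subcutaneous cells, and 217 and 58 were so in intraabdominal cells. Beyond 8-fold the numbers were 12 and 20.

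**Figure D1:**
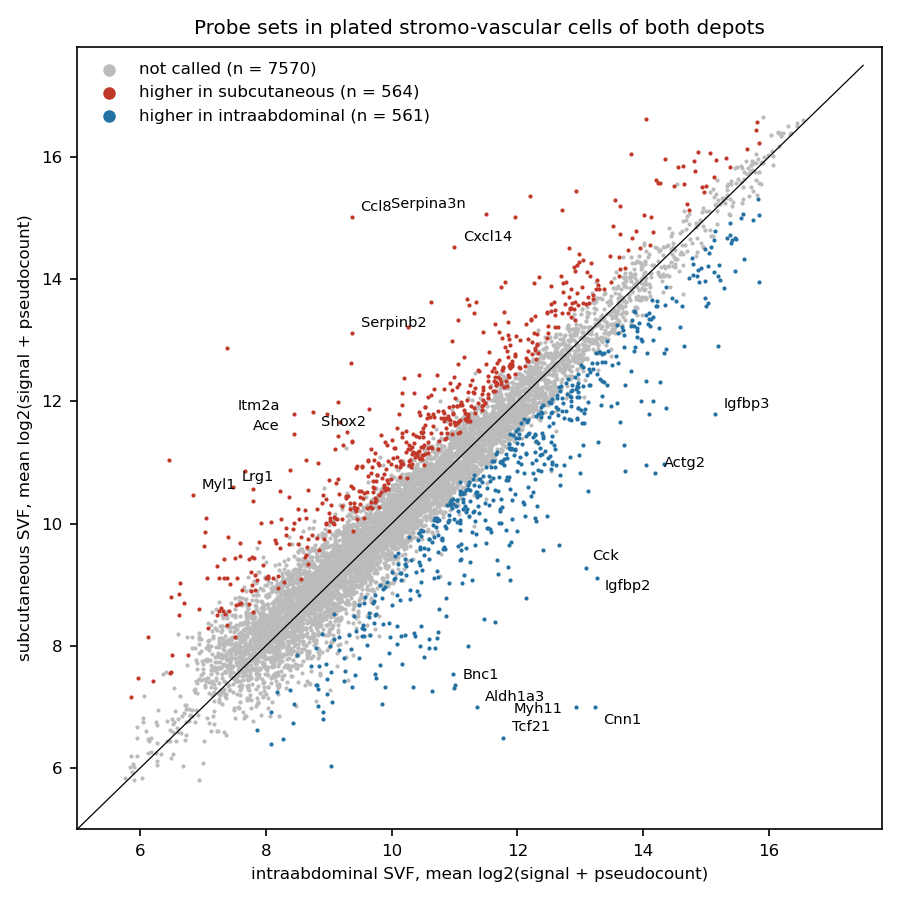
Mean log2 signal of intraabdominal (horizontal) against subcutaneous (vertical) plated stromal-vascular cells, on the scale of log2 of the signal plus 40.09, 1 point per probe set over the 8695 tested, each a mean of 3 arrays. Red marks the 564 called higher in subcutaneous cells and blue the 561 called higher in intraabdominal cells, which lie on both sides of the diagonal, with Ccl8 far above it and Cnn1, Myh11 and Tcf21 far below.

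By the naming rule the largest difference on the subcutaneous side was in the chemokine Ccl8. On the intraabdominal side it was in the contractile gene Cnn1, ahead of Myh11 and the transcription factor Tcf21. Several of the leading genes were near the floor in one depot and well above it in the other. Tcf21, a factor of visceral mesenchyme, read 49.7, 50.2 and 50.7 on the subcutaneous and 3320, 3587 and 3502 on the intraabdominal arrays (log2 difference -5.28 ± 0.33, SE, 38.9-fold, adjusted p = 8.11e-08). Cck, the peptide cholecystokinin, known from gut and brain, read 496, 692 and 563 against 8194, 9454 and 8466 (-3.82 ± 0.42, 14.1-fold, adjusted p = 2.18e-05). Myl1, a myosin light chain of fast skeletal muscle, went the other way at 1418, 1301 and 1423 against 174, 53.9 and 34.9 (3.63 ± 0.29, adjusted p = 8.47e-07). Groups did not overlap in any of the 30 leading genes, which the selection required.

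**Figure D2:**
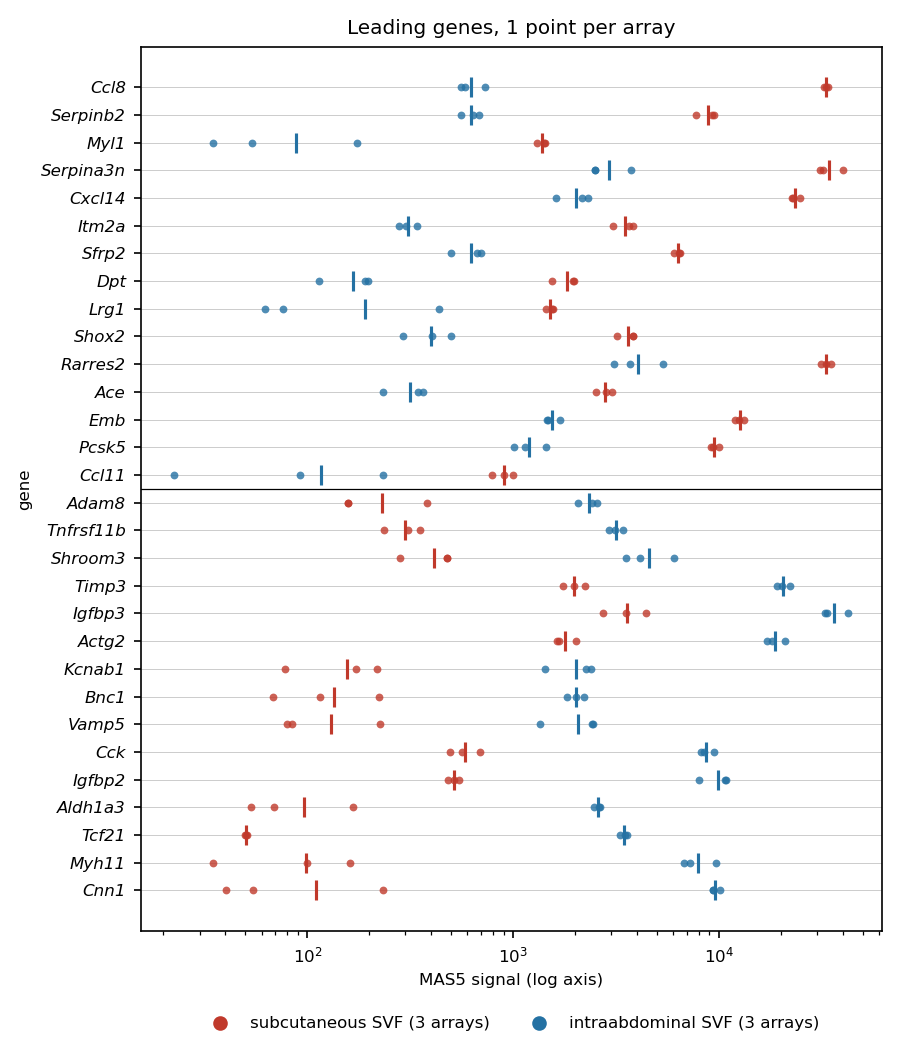
Signal on each array (log axis) of the 15 genes with the largest called differences in each direction, red circles for the 3 subcutaneous and blue circles for the 3 intraabdominal arrays of plated stromal-vascular cells, with a bar at each mean. Within a depot the points lie close together except where a gene is dim, such as Cnn1 at 40.3 to 235 in subcutaneous cells.

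Contractile genes of smooth muscle were called on the intraabdominal side alone. Of 22 tested members of the smooth muscle and pericyte list (26 on the array) 14 were higher in intraabdominal and 0 in subcutaneous cells, 63.6% called against 13.9% of all genes, with a median of -1.19, and 15 and 0 at limma's unadjusted p under 0.05. Calponin, Cnn1, which binds actin and slows the myosin motor, read 54.5, 40.3 and 235 on the subcutaneous and 9408, 10096 and 9388 on the intraabdominal arrays. That was 75.6-fold (log2 difference -6.24 ± 0.42, adjusted p = 1.38e-07). Smooth muscle myosin, Myh11, the motor of mature smooth muscle, read 34.8, 99.7 and 162 against 6757, 7216 and 9720 (61.1-fold, adjusted p = 3.83e-06). Both genes were near the floor in the subcutaneous cells.

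Other contractile genes were well above the floor in both depots. Actg2, the enteric smooth muscle actin, read 1678, 2033 and 1643 against 17144, 18134 and 20952 (10.3-fold, adjusted p = 1.4e-08). Tagln, or SM22, an actin-binding protein, read 15532, 15851 and 16265 against 51422, 60647 and 65073 (log2 difference -1.89 ± 0.20, adjusted p = 1.61e-05). Acta2, the smooth muscle actin that activated fibroblasts also make, read 14373, 14351 and 15422 against 37646, 39755 and 42738 (-1.44 ± 0.26, adjusted p = 0.00144). In each of these genes the 3 intraabdominal arrays lay above the 3 subcutaneous ones. The kinase that drives contraction, Mylk, differed by -2.29, and the intermediate filament gene Des by -2.07. The actin-binding genes Csrp1, Actn1 and Tpm1 differed by -2.30, -1.23 and -1.14, and Mcam, an adhesion molecule of vessel walls, by -1.23. For 3 further members of the list, chosen after their values were seen, there was no call. Pdgfrb, the receptor through which pericytes are recruited to vessels, read 3910, 3133 and 3333 against 3658, 3663 and 3777 (adjusted p = 0.906), and the groups overlapped. Rgs5, a regulator abundant in pericytes, read 214, 172 and 375 against 143, 47.3 and 307 (adjusted p = 0.387). Notch3, the receptor of vessel wall cells, missed the threshold (-0.90 ± 0.29, adjusted p = 0.0544) and passed it without subcutaneous array 1 (adjusted p = 0.0253).

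Many smooth muscle genes carry a CArG box, the element bound by serum response factor, close to their start. Promoter windows of 300 bases, from 250 before to 50 after the start of transcription in RefSeq (GRCm38.p6), were held for 11 of the 14 called members, and 2 of the 11 had the box on either strand, Vcl and Myl9. The box occurs in 1.63% of 32851 such windows. Both are shown because they are the called members in which the element can be read directly, with the box in capitals and the sequence 5' to 3'. The Vcl stretch is chr14:20929151-20929200 on the plus strand, with 217 bases between the box and the start, and the Myl9 stretch is chr2:156775283-156775332 on the plus strand, with 151 bases between them.
Vcl: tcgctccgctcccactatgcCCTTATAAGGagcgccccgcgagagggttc
Myl9: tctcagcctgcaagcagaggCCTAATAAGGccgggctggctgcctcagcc
Vcl, the vinculin of focal adhesions, read 24710, 22468 and 19216 against 37485, 30127 and 34640 (log2 difference -0.62 ± 0.15, adjusted p = 0.0128), a call lost without intraabdominal array 1 (adjusted p = 0.0535) or subcutaneous array 3 (adjusted p = 0.0746). Myl9, the regulatory light chain of smooth muscle myosin, read 2111, 2892 and 3087 against 5774, 5613 and 4920 (-1.02 ± 0.20, adjusted p = 0.00324). Both were thus among the smaller differences of the list, and the box is a description of the sequence, not a measured site.

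Further genes of the actin and muscle programme lay outside the lists and were chosen after their values were seen. Fhl1, a LIM protein of muscle, read 1872, 1887 and 2075 against 15437, 17060 and 18282 (8.54-fold, adjusted p = 1.45e-09). Its relative Fhl2, a cofactor of actin-regulated transcription, differed by -2.02, and Ankrd1, a target of mechanical signalling, by -2.25. Cardiac actin, Actc1, differed by -1.60, and Mrtfa, the actin-sensing partner of serum response factor, by -2.22. Smooth muscle marker signal summed over the 26 genes on the array was 108979 to 115598 in subcutaneous and 307178 to 347001 in intraabdominal cells. In a bulk sample more cells of a type and more RNA per cell cannot be told apart, here or for any list below.

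Mesothelial markers were called in intraabdominal cells alone. Of 9 tested members 6 were higher there and 0 in subcutaneous cells (66.7%, median -1.43), 7 and 0 at limma's unadjusted p under 0.05. The 6 fell to 4 or 5 without any 1 of the 6 plated arrays. Bnc1, a transcription factor of mesothelium and keratinocytes, read 68.1, 116 and 223 against 2211, 1826 and 2023 (log2 difference -3.64 ± 0.44, adjusted p = 4.81e-05). Upk3b, a plaque protein of mesothelium, read 262, 194 and 180 against 1458, 1751 and 1661 (-2.73 ± 0.28, adjusted p = 1.13e-05). Wt1, the Wilms tumour factor of mesothelium and visceral fat precursors, read 163, 193 and 311 against 1853, 1024 and 1311 (-2.45 ± 0.35, adjusted p = 0.000235). The keratin Krt8 read 160, 223 and 205 against 541, 1519 and 1058, also with no overlap (adjusted p = 0.00174). Mesothelin, Msln, was dim in both depots, at 51.4 to 68.3 and 46.9 to 100. Summed signal of the 13 markers on the array was 4945 to 5451 and 13112 to 14447, while in adipocytes it was 4063 to 5884 in the subcutaneous and 3642 to 4782 in the intraabdominal depot.

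Macrophage markers did not move as 1 group. Of 25 tested members 9 were higher in intraabdominal and 2 in subcutaneous cells (44%, median -1.11), and the summed signal of 32 markers was 40929 to 44443 in subcutaneous and 61787 to 70251 in intraabdominal cells. The complement component C1qa, made by resident macrophages, read 81.3, 95.1 and 100 against 964, 979 and 722 (6.97-fold, adjusted p = 3.01e-06). Mpeg1, a pore-forming protein of macrophages, read 1320, 1200 and 1274 against 4634, 3982 and 4437 (3.36-fold, adjusted p = 0.00018), and lysozyme, Lyz2, differed by -1.42. In contrast Csf1r, the receptor on which macrophages depend, was higher in subcutaneous cells at 6562, 6489 and 6225 against 3454, 3991 and 4041 (log2 difference 0.74 ± 0.17, adjusted p = 0.00842), although its other probe set differed by 0.01. The lysosomal protease Lgmn was also higher there (1.08 ± 0.17, adjusted p = 0.000441). The classic markers gave no call. Adgre1, the F4/80 antigen, read 440, 110 and 366 against 898, 842 and 711 (adjusted p = 0.0527, and 0.0416 without subcutaneous array 1), and Cd68, a lysosomal glycoprotein, differed by -0.06 (adjusted p = 0.916). No detection calls were at hand, so the dim C1qa signal in subcutaneous cells cannot be told from absence.

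Endothelial markers were split. Of 19 tested members 7 were higher in subcutaneous and 2 in intraabdominal cells (47.4% against 13.9% of all genes, median 0.15). The 7 fell to 4 without intraabdominal array 1 and to 3 without intraabdominal array 3 or subcutaneous array 2. Cdh5, the cadherin of endothelial junctions, read 355, 316 and 467 against 102, 59.1 and 39.5 (3.99-fold, adjusted p = 7.52e-05). Ramp2, a receptor subunit for adrenomedullin, read 1703, 1451 and 1830 against 674, 507 and 421 (log2 difference 1.58 ± 0.20, adjusted p = 6.21e-05). The signals were low for endothelium: Cdh5 reached at least 3781 on each adipocyte array. Thrombomodulin, Thbd, which endothelium and mesothelium both make, was higher in intraabdominal cells at 2125, 1901 and 1610 against 6399, 5552 and 5806 (-1.64 ± 0.17), but its other probe set differed by -0.05. Pecam1, or CD31, read 608, 287 and 637 against 678, 130 and 455, with full overlap. Summed signal of 24 markers was 15756 to 17771 and 20833 to 27933, the opposite order to the count of calls. The part of mesothelial, macrophage, smooth muscle and endothelial cells in the other differences below was not tested.

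**Figure D3:**
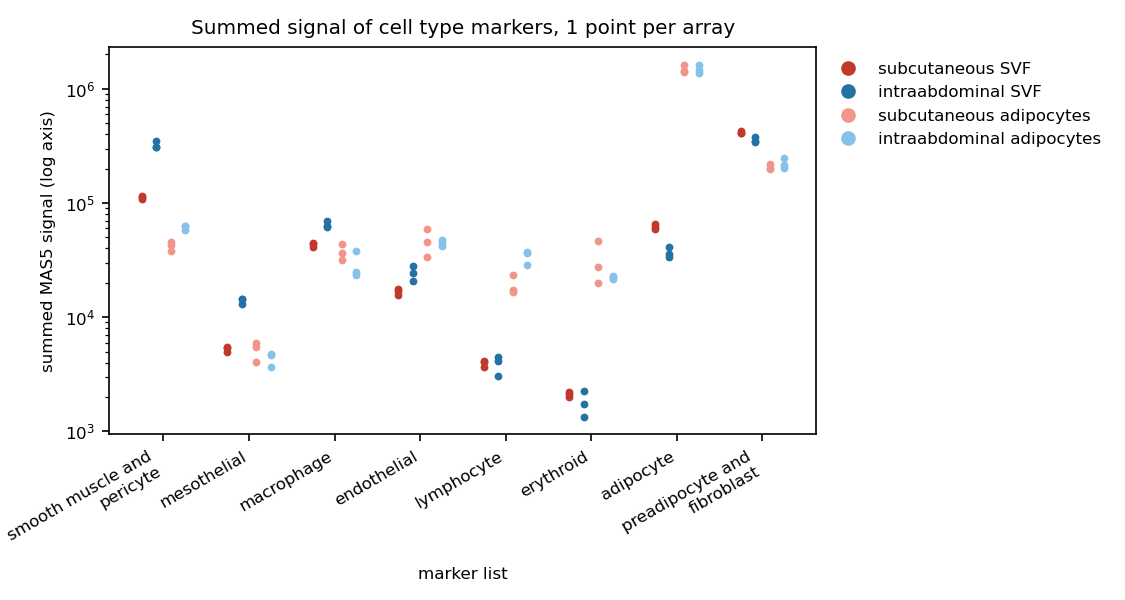
Summed linear signal of 8 cell type marker lists on each of the 12 arrays (1 probe set per gene, log axis), dark red and dark blue for plated subcutaneous and intraabdominal cells, light red and light blue for the adipocytes of the same depots. Among plated cells the smooth muscle, mesothelial, macrophage and endothelial sums are higher on all 3 intraabdominal arrays. The adipocyte sums and the preadipocyte and fibroblast sums are higher on all 3 subcutaneous arrays. The lymphocyte sums overlap at 3632 to 4165 and 3074 to 4455, and the erythroid sums overlap too.

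Chemokines, the secreted peptides that attract leukocytes, were called in subcutaneous cells alone. Of 17 tested members 8 were higher there and 0 in intraabdominal cells (47.1%, median 0.71), 11 and 0 at limma's unadjusted p under 0.05, and the summed signal of 22 chemokines was 133638 to 137421 against 46557 to 52065. Ccl8, or MCP-2, a monocyte attractant, read 32576, 33025 and 33745 against 586, 731 and 556 (50.2-fold, log2 difference 5.65 ± 0.30, adjusted p = 1.97e-08). Cxcl14, made by fibroblasts and epithelia, read 22759, 23036 and 24707 against 1619, 2312 and 2158 (11.5-fold, adjusted p = 1.49e-06). Ccl11, or eotaxin, which draws eosinophils, read 793, 1001 and 904 against 22.6, 92.1 and 235 (2.83 ± 0.41, adjusted p = 0.000261). In these genes the groups were far apart, and those that follow were measured well above the floor in both depots. Cxcl12, which retains blood stem cells and lymphocytes near stroma, read 34117, 36836 and 30612 against 21211, 15084 and 14248 (1.02 ± 0.17, adjusted p = 0.000824), and its other probe sets differed by 1.69 and 1.39. Ccl7, a further monocyte attractant, read 9078, 10194 and 10249 against 3902, 4844 and 4690 (1.13 ± 0.17, adjusted p = 0.000352).

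Ccl2, Ccl7, Ccl11, Ccl12, Ccl8 and Ccl1 lie in this order in RefSeq as neighbouring genes. Ccl7, Ccl11 and Ccl8 were called, and Ccl12 was too dim to be tested. The outer members were not called. Ccl2, or MCP-1, the chief monocyte attractant of fat, read 12804, 12035 and 11043 against 8772, 8951 and 8738 (log2 difference 0.44 ± 0.16, adjusted p = 0.105), with no overlap. Ccl1, a chemokine of T cells, read 537, 361 and 505 against 257, 485 and 327 (adjusted p = 0.768).

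The neutrophil attractants Cxcl1 and Cxcl2, genes of another cluster, carry a binding site for NF-kB, the factor through which inflammatory signals act, close to their start. Windows were held for 5 of the 8 called chemokines, and these 2 had the site, which occurs in 4.51% of all windows. They are shown with matches on both strands, which overlap, in capitals. The Cxcl1 stretch is chr5:90891154-90891204 and the Cxcl2 stretch chr5:90903782-90903832, both on the plus strand, with 60 and 86 bases between the site and the start.
Cxcl1: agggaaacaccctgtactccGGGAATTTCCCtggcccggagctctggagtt
Cxcl2: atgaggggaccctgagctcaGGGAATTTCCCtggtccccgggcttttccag
Cxcl1 read 2602, 2509 and 2998 against 1006, 1579 and 1506 (log2 difference 0.99 ± 0.15, adjusted p = 0.000416). Cxcl2 read 286, 380 and 481 against 218, 127 and 133 (1.09, adjusted p = 0.0164), and its call was lost without intraabdominal array 2 or 3 or subcutaneous array 2 or 3, with adjusted p up to 0.0841. The other chemokines called had no match in the windows held, which says nothing of sites farther away.

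Acute phase genes, whose products rise in plasma on inflammation, were also higher on the subcutaneous side. Of 10 tested members 7 were higher in subcutaneous cells and 0 in intraabdominal cells (70%, median 1.11), a count that fell to 4 without intraabdominal array 1 or subcutaneous array 3. It was 8 and 0 at limma's unadjusted p under 0.05. Serpina3n, an inhibitor of serine proteases, read 31093, 32264 and 39939 against 2506, 3761 and 2507 (log2 difference 3.56 ± 0.21, adjusted p = 6.9e-08). Lipocalin 2, Lcn2, which binds bacterial iron carriers, read 8941, 9440 and 8526 against 2810, 4231 and 3038 (1.43 ± 0.27, adjusted p = 0.00259), though its dimmer probe set differed by 0.17 and was not called. Saa3, the serum amyloid of fat and macrophages, read 98386, 100684 and 109600 against 51037, 65154 and 69598, and was not called (adjusted p = 0.0606). Lbp, the carrier of bacterial lipopolysaccharide, and Itih5, a plasma-type protein that binds hyaluronan, lay outside the list and were chosen after their values were seen. They differed by 2.15 and 2.81.

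The metallothioneins Mt1 and Mt2, small proteins that bind zinc and copper, were called members of the list. Both genes have metal response elements close to the start, and the stretches with those upstream of it are shown with the elements (TGCACNC or TGCGCNC, either strand) in capitals. In the whole 300-base windows Mt1 has 3 and Mt2 has 4. Any such element occurs in 25.7% of windows and 3 or more in 1.31%. Windows were held for 6 of the 7 called acute phase members, and these 2 had at least 1 element. The Mt1 stretch is chr8:94179046-94179088 and the Mt2 stretch chr8:94172375-94172594, both on the plus strand, with 16 and 43 bases between the last element shown and the start.
Mt1: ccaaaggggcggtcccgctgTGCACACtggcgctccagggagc
Mt2: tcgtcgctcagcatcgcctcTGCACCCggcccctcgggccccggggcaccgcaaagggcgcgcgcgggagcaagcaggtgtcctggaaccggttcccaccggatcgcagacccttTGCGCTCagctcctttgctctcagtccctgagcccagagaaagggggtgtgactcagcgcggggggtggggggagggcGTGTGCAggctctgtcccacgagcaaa
Mt1 read 43861, 43421 and 47029 against 5667, 10306 and 8059 (log2 difference 2.52 ± 0.22, adjusted p = 1.93e-06). Mt2 read 96446, 94930 and 110756 against 16866, 18996 and 14772 (2.58 ± 0.16, adjusted p = 7.91e-08). The neighbours thus differed by nearly the same amount, and no array of one depot came near the other.

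Complement and coagulation genes were called in both directions. Of 10 tested complement members 3 were higher in subcutaneous and 2 in intraabdominal cells (50% against 13.9% of all genes). The complement chains C1qa, C1qb and C1qc, each called higher in intraabdominal cells, were counted with the macrophage markers and not here. C2, a protease of the classical pathway, read 11576, 12916 and 14918 against 2177, 2689 and 2137 (log2 difference 2.47 ± 0.16, adjusted p = 1.17e-07), and the pathway's inhibitor Serping1 read 58262, 61028 and 69536 against 26692, 30114 and 29703 (1.12 ± 0.17). Higher in intraabdominal cells were the membrane inhibitor Cd59a (-2.21 ± 0.14) and the fluid-phase inhibitor clusterin, Clu (-1.71 ± 0.15). Of 23 tested coagulation, plasminogen and serpin members 7 were higher in subcutaneous and 4 in intraabdominal cells (47.8%). Serpinb2, the plasminogen activator inhibitor PAI-2, read 9508, 9291 and 7746 against 680, 640 and 558 (3.74 ± 0.27, adjusted p = 3.4e-07). The thrombin receptor F2r read 14387, 14505 and 10871 against 35118, 30498 and 31930 (-1.30 ± 0.24, adjusted p = 0.00161).

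Of 34 cytokines and their receptors tested 9 were higher in subcutaneous and 4 in intraabdominal cells (38.2% against 13.9% of all genes, median 0.20). A ligand and its decoy receptor differed in opposite directions. Tnfsf11, or RANKL, which drives osteoclast formation, read 584, 633 and 569 against 136, 89.5 and 104 (log2 difference 2.09 ± 0.35, adjusted p = 0.000938). Tnfrsf11b, or osteoprotegerin, which captures RANKL, read 235, 355 and 309 against 3423, 2921 and 3122 (-3.25 ± 0.30, adjusted p = 3.68e-06). The interleukin 1 system was likewise split, with the signalling receptor Il1r1 at 4765, 4579 and 4666 against 1805, 1873 and 1672 (1.37 ± 0.23, adjusted p = 0.000935) and the antagonist Il1rn at 2280, 1783 and 1989 against 3879, 4171 and 4229 (-1.01 ± 0.20, adjusted p = 0.00316). Csf3, the growth factor of granulocytes, read 2517, 3179 and 2916 against 865, 488 and 474 (2.21 ± 0.22, adjusted p = 6.9e-06), and the feedback inhibitor Socs3 differed by 1.21. Interleukin 6, Il6, read 6693, 6436 and 4609 against 9775, 12454 and 7995 and was not called (adjusted p = 0.0788).

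Proteases and their inhibitors were called in both directions. Of 25 tested members 7 were higher in subcutaneous and 8 in intraabdominal cells (60%, median 0.04). The 8 fell to 5 without intraabdominal array 1 or 2 or subcutaneous array 3. Stromelysin, Mmp3, which degrades many matrix proteins, read 64016, 71737 and 68464 against 14307, 15626 and 12888 (log2 difference 2.25 ± 0.23, adjusted p = 9.04e-06). Cathepsin K, Ctsk, a collagen-degrading lysosomal protease, read 10337, 12194 and 14316 against 2369, 2601 and 2126 (2.35 ± 0.22, adjusted p = 5.09e-06). Timp3, the matrix-bound inhibitor of metalloproteinases, read 1751, 1977 and 2230 against 22164, 20282 and 19199 (-3.35 ± 0.25, adjusted p = 4.08e-07). The soluble inhibitor Timp1 showed no such gap, at 66839, 64404 and 79124 against 57782, 70229 and 76581 (adjusted p = 0.903). Adam8, a membrane protease of leukocytes, read 380, 158 and 157 against 2569, 2406 and 2076 (-3.23 ± 0.39, adjusted p = 4.71e-05), and the neutrophil collagenase Mmp8 differed by -2.63.

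Collagens were called in both directions. Of 34 tested members of the collagen list 6 were higher in subcutaneous and 5 in intraabdominal cells (32.4% against 13.9% of all genes). The chains of collagen VI, a microfibril around stromal and fat cells, were higher in subcutaneous cells. Col6a3 read 16037, 15136 and 15860 against 5813, 4240 and 4783 (log2 difference 1.67 ± 0.15, adjusted p = 3.59e-06). Col6a1 read 16440, 14812 and 15621 against 7202, 6744 and 6373 (1.20 ± 0.11, adjusted p = 3.79e-06), and Col6a2 differed by 0.97 ± 0.13 (adjusted p = 0.00015). On the intraabdominal side Col8a1, a short-chain collagen of vessel walls, read 1693, 1674 and 2015 against 6037, 10450 and 8620 (-2.17 ± 0.26, adjusted p = 5.81e-05). The basement membrane chain Col4a5 differed by -1.78 and Col14a1, which binds fibril surfaces, by -1.41. The chains of type I collagen, the main fibril of connective tissue, gave no call in these cells, with Col1a1 at 92056 to 104464 against 83964 to 100052 (adjusted p = 0.665) and Col1a2 at 90953 to 98843 against 81742 to 103625 (adjusted p = 0.822).

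Of 42 tested proteoglycans and matrix glycoproteins 9 were higher in subcutaneous and 8 in intraabdominal cells (40.5% against 13.9% of all genes). Dermatopontin, Dpt, a small protein that speeds collagen fibril assembly, read 1976, 1962 and 1552 against 191, 197 and 114 (log2 difference 3.19 ± 0.20, adjusted p = 8.5e-08). Lumican, Lum, which spaces collagen fibrils, read 3785, 3761 and 3132 against 8075, 9224 and 8161 (-1.25 ± 0.16, adjusted p = 7.3e-05), and matrix Gla protein, Mgp, an inhibitor of calcification, differed by -1.82. Adhesion genes numbered 3 higher in subcutaneous and 6 in intraabdominal cells of 29 tested (31%). The gap junction protein Gja1, or connexin 43, read 22726, 22443 and 20529 against 9125, 7610 and 7595 (1.43 ± 0.17). The neural cell adhesion molecule Ncam1 read 536, 578 and 477 against 2386, 2211 and 2091 (-1.99 ± 0.39, adjusted p = 0.00303).

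Secreted regulators of growth and patterning differed as well. Sfrp2, which binds Wnt ligands outside the cell, read 6494, 6377 and 6082 against 668, 501 and 695 (log2 difference 3.28 ± 0.30, adjusted p = 3.62e-06), while 3 of 23 tested Wnt genes were higher in subcutaneous and 1 in intraabdominal cells, together 17.4% against 13.9% of all genes. The 1 fell to 0 (limma) without any 1 of the 6 plated arrays. Of 33 TGF beta and BMP genes 4 were higher in subcutaneous and 9 in intraabdominal cells (39.4%). Tgfb3, a TGF beta ligand, read 1630, 1430 and 1291 against 10687, 8279 and 7919 (-2.59 ± 0.23, adjusted p = 2.86e-06), and Id1 and Id4, targets of BMP signals, each differed by -1.52. Higher in subcutaneous cells was Gdf10, a TGF beta family ligand, at 991, 797 and 1215 against 227, 123 and 285 (2.08 ± 0.44, adjusted p = 0.00473). The 4 fell to 1 without intraabdominal array 2 or 3 or subcutaneous array 1 or 2, and to 2 without subcutaneous array 3. Tgfb1 was not called (0.84 ± 0.35, adjusted p = 0.152).

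The binding proteins Igfbp2 and Igfbp3, which carry insulin-like growth factors, were higher in intraabdominal cells. Igfbp2 read 480, 546 and 519 against 10850, 8050 and 10668 (log2 difference -4.14 ± 0.33, adjusted p = 9.74e-07). Igfbp3, the main carrier in blood, read 4402, 3536 and 2743 against 33538, 32888 and 42586 (-3.35 ± 0.22, adjusted p = 1.17e-07), and its other probe set differed by -2.86. For Igf1 itself the probe sets went in opposite directions. The brighter read 4327, 4756 and 4266 against 3147, 2503 and 1965 (0.82 ± 0.18, adjusted p = 0.00588) and the other 464, 500 and 530 against 3309, 4582 and 3446 (-2.81 ± 0.23, adjusted p = 9.74e-07), so no direction is given for the gene. Of 18 tested genes of this axis 4 were called in each direction (44.4% against 13.9% of all genes). In this count Igf1 stood on the subcutaneous side, by its brighter probe set alone. The 4 on the intraabdominal side fell to 2 without intraabdominal array 2 or 3 or subcutaneous array 1 or 2, and the 4 on the subcutaneous side to 2 without subcutaneous array 1.

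Retinoid genes were called in both directions. Of 12 tested members 5 were higher in subcutaneous and 3 in intraabdominal cells (66.7%, median 0.33). Enzymes that make retinoic acid from retinal were on the intraabdominal side. Aldh1a3 read 166, 53 and 68.8 against 2656, 2613 and 2461 (log2 difference -4.35 ± 0.38, adjusted p = 2.46e-06). Aldh1a1 read 12129, 12140 and 11850 against 24140, 27355 and 23652 (-1.05 ± 0.13, adjusted p = 6.21e-05), but its dimmer probe set differed by 0.06. Aldh1a2, which mesothelium also makes, was too dim over all 12 arrays to be tested and read 81.1, 91.4 and 103 against 794, 1371 and 1623. On the subcutaneous side were Rbp4, the carrier of retinol, at 5690, 5281 and 5521 against 1347, 1371 and 1337 (1.99 ± 0.12, adjusted p = 8.11e-08), and Adh1, which oxidises retinol to retinal, at 609, 663 and 726 against 119, 246 and 192 (1.68 ± 0.23). Rarres2, or chemerin, a chemoattractant and adipokine induced by retinoids, read 31252, 33091 and 35158 against 3092, 5325 and 3686 (3.06 ± 0.17, adjusted p = 3.07e-08).

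Genes of the angiotensin system were higher in subcutaneous cells at successive steps. Agt, the precursor angiotensinogen, read 721, 817 and 724 against 85.2, 86.1 and 94.9 (log2 difference 2.62 ± 0.16, adjusted p = 7.2e-08). Ace, the converting enzyme that yields angiotensin II, read 3028, 2842 and 2524 against 234, 364 and 345 (3.02 ± 0.36, adjusted p = 4.15e-05). Anpep, an aminopeptidase that trims angiotensin peptides and a marker of stromal cells, read 4500, 4478 and 4465 against 1034, 1198 and 1102 (1.98 ± 0.41, adjusted p = 0.00433). Endothelin, Edn1, a peptide that constricts vessels, was higher in intraabdominal cells at 1031, 1253 and 1338 against 2822, 3836 and 3698 (-1.48 ± 0.31, adjusted p = 0.00438), as was Npr3, the clearance receptor of natriuretic peptides (-1.77 ± 0.27). Over the whole list 6 members were higher in subcutaneous and 3 in intraabdominal cells of 16 tested (56.2%).

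**Figure D4:**
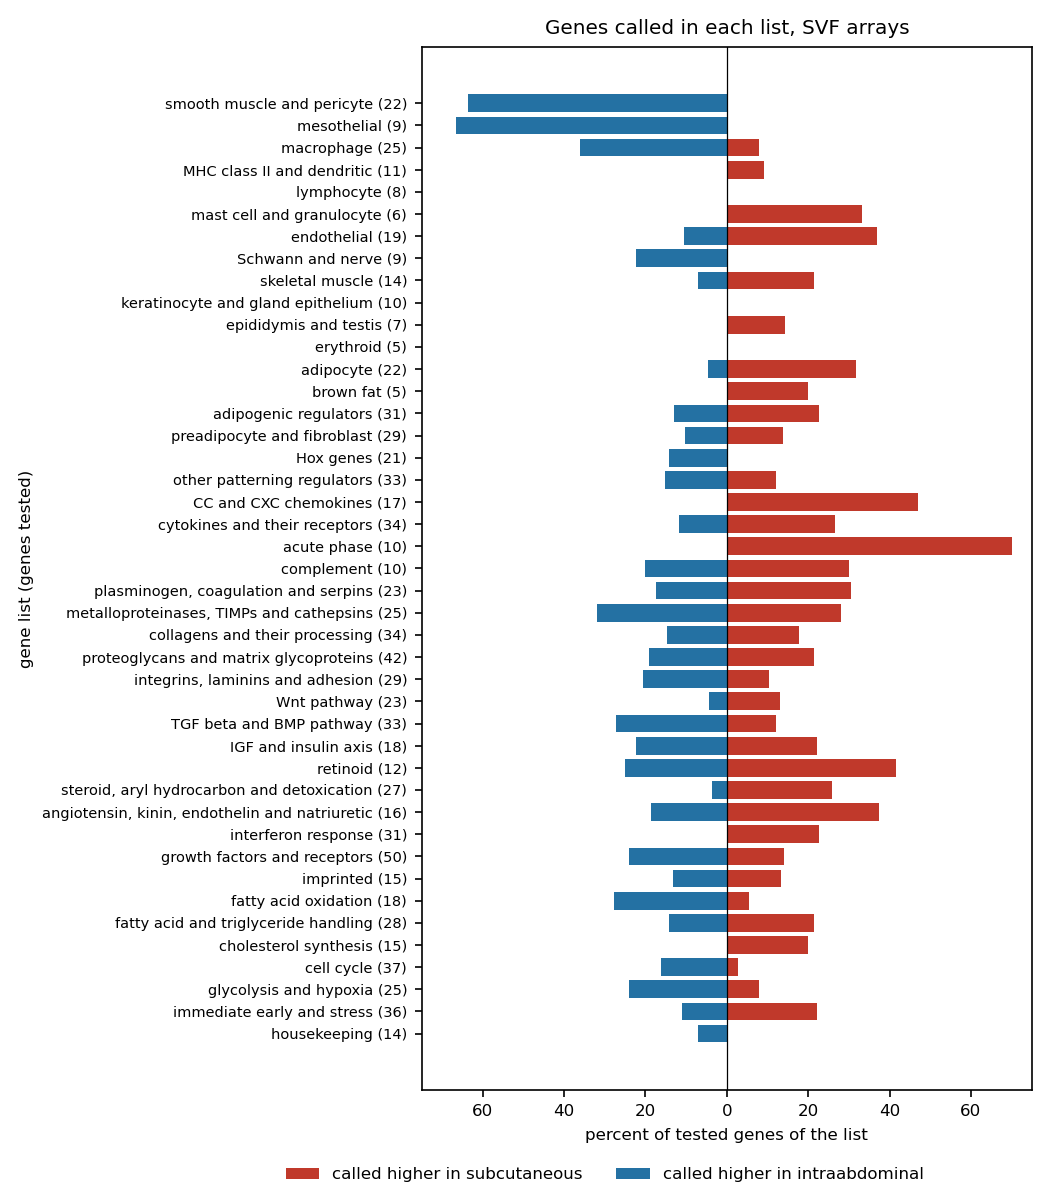
Percent of the tested genes of each list (number tested in brackets) called higher in subcutaneous (red, right) and in intraabdominal (blue, left) plated stromal-vascular cells. Called genes of the smooth muscle (0 of 22 and 14 of 22) and mesothelial lists lie on the intraabdominal side alone, those of the chemokine (8 of 17), acute phase (7 of 10) and interferon lists (7 of 31) on the subcutaneous side alone, and those of the protease list on both.

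Positional transcription factors set the depots apart in both directions. Of 33 patterning regulators other than Hox genes 4 were higher in subcutaneous and 5 in intraabdominal cells (27.3% against 13.9% of all genes). Shox2, a homeobox factor of limb growth, read 3839, 3823 and 3204 against 498, 402 and 291 (log2 difference 3.09 ± 0.19, adjusted p = 8.11e-08). Irx3, an Iroquois factor, read 2072, 1906 and 1982 against 413, 415 and 418 (2.15 ± 0.21, adjusted p = 7.11e-06), and the inhibitor of differentiation Twist2 differed by 1.20. Besides Tcf21, the nuclear receptors Nr2f1 and Nr2f2 were higher in intraabdominal cells, Nr2f1 at 407, 267 and 195 against 1452, 1322 and 1376 (-2.16 ± 0.42, adjusted p = 0.00262) and Nr2f2 by -1.69. Tbx15, a T-box factor known from subcutaneous fat, was too dim over the 12 arrays to be tested and read 725, 866 and 590 against 28.3, 15.6 and 25.4. All 3 subcutaneous arrays lay above the others on that probe set, while its further, dimmer probe sets overlapped.

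Hox genes, which record position along the body axis, were called on the intraabdominal side only, 3 of 21 tested (14.3%, near the 13.9% of all genes), and 5 against 0 at limma's unadjusted p under 0.05. Hoxa5 read 202, 245 and 281 against 1609, 1664 and 1699 (log2 difference -2.60 ± 0.22, adjusted p = 2.05e-06). Hoxa7 read 119, 231 and 107 against 752, 762 and 920 (-2.19 ± 0.31, adjusted p = 0.000203). Hoxc8 read 1233, 1100 and 1102 against 3368, 3185 and 3500 (-1.52 ± 0.17, adjusted p = 2.42e-05). The tested neighbours Hoxa2, Hoxa3, Hoxa4, Hoxa6 and Hoxa9 were not called. Hoxa4, next to Hoxa5, read 2750, 3357 and 3005 against 2772, 2980 and 2187 (adjusted p = 0.536), Hoxa6, between Hoxa5 and Hoxa7, differed by 0.08, and Hoxa9 by 0.19, each with overlapping groups.

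Precursor and fat cell genes showed mixed directions. Of 29 tested precursor and fibroblast markers 4 were higher in subcutaneous and 3 in intraabdominal cells (24.1% against 13.9% of all genes). The 3 fell to 1 without intraabdominal array 2 or subcutaneous array 1. Thy1, or CD90, a surface marker of stromal cells, read 36401, 36647 and 34611 against 6513, 6584 and 6817 (log2 difference 2.43 ± 0.42, adjusted p = 0.00117). Fap, a surface protease of activated fibroblasts, read 2184, 2277 and 2560 against 953, 764 and 648 (1.54 ± 0.27). S100a4, a calcium-binding protein of fibroblasts and macrophages, was higher in intraabdominal cells at 2271, 2556 and 2569 against 10967, 14346 and 14944 (-2.41 ± 0.31, adjusted p = 8.41e-05). Pdgfra differed by 0.08 and was not called (adjusted p = 0.943). Of 22 tested adipocyte markers 7 were higher in subcutaneous cells and 1 in intraabdominal cells (36.4%). The latter was Cd36, a fatty acid transporter also made by macrophages and endothelium, at 36.3, 40 and 57.2 against 212, 217 and 263. Without subcutaneous array 2 there were 2 on the intraabdominal side. Scd1, which desaturates fatty acids, read 18590, 19985 and 19048 against 9384, 8343 and 6221 (1.28 ± 0.14, adjusted p = 2.16e-05). Cebpa and Fabp4, a regulator and a lipid carrier of fat cells, differed by 0.26 and -0.41 without a call. Summed adipocyte marker signal was 59223 to 65878 in subcutaneous and 33487 to 40870 in intraabdominal cells, against at least 1372432 on each adipocyte array.

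Of 50 growth factors and receptors tested 7 were higher in subcutaneous and 12 in intraabdominal cells (38% against 13.9% of all genes). Receptors for fibroblast growth factors went in opposite directions, with Fgfr1 at 8115, 7572 and 8957 against 3659, 4155 and 4856 (log2 difference 0.96 ± 0.16, adjusted p = 0.000696) and Fgfr2 at 756, 709 and 818 against 2536, 2297 and 2748 (-1.68 ± 0.17, adjusted p = 1.2e-05). The dimmer Fgfr2 probe set differed by -0.91 without a call. Among the called members of the list, the ephrin receptor Epha2 differed by -2.56 and the ephrins Efnb1 and Efnb2, ligands that guide cell contacts, by -2.12 and -1.83. The neurotrophin Bdnf read 2273, 2514 and 1808 against 8434, 7846 and 7733 (-1.86 ± 0.33, adjusted p = 0.00129).

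Genes that present antigen through MHC class I were higher in subcutaneous cells. The heavy chain H2-K1 read 57827, 58150 and 61384 against 24683, 26547 and 25176 (log2 difference 1.21 ± 0.11, adjusted p = 2.69e-06). H2-D1 read 46125, 47955 and 52028 against 18671, 19642 and 19723 (1.33 ± 0.11, adjusted p = 1.93e-06), and the shared light chain B2m read 60748, 68715 and 64839 against 40887, 41733 and 40093 (0.66 ± 0.10, adjusted p = 0.000343). Probe sets of H2-K1 and H2-D1 can share signal, since these genes are near copies. Tapbp, which loads peptides onto the heavy chain, and H2-Q4, a non-classical heavy chain, were chosen after their values were seen and differed by 1.36 and 1.69. The interferon response list as a whole had 7 of 31 members higher in subcutaneous cells and 0 in intraabdominal cells (22.6%, median 0.25), with 1 on the intraabdominal side without intraabdominal array 3 or at limma's unadjusted p under 0.05, and the classic targets Ifit1 and Isg15 were not called. Sod2, the mitochondrial superoxide dismutase, was also chosen after its values were seen. It read 5400, 5417 and 5125 against 1165, 1142 and 1107 (2.18 ± 0.14, adjusted p = 8.11e-08).

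The adipocytes floated from the same depots gave the same depot comparison without culture. In adipocytes 707 of 8695 probe sets (8.13%) were called, 3.97% of all higher in the subcutaneous and 4.16% in the intraabdominal depot, and 228 were called in both fractions, 20.3% of the calls in plated cells and 32.2% of those in adipocytes. Of these, 162 had the same direction and 66 the opposite. Among the 30 leading genes 7 were called in the same direction in adipocytes, 0 in the opposite direction and 23 not at all. The difference between the fractions in the depot effect was tested as an interaction, called for 733 probe sets (8.43%), with 4.53% above 0 and 3.9% below. It was called for 27 of the 30 leading genes, with adjusted p from 1.02e-06 to 0.00679. These genes were chosen for their differences in plated cells, which the interaction contains, so this count describes them and is no independent test. The exceptions were Ace, Shox2 and Sfrp2. Shox2 differed by 3.09 in plated cells and 2.96 in adipocytes, where it read 2361 to 2568 against 264 to 309. Plated cells and adipocytes differed also in culture, so fraction and culture cannot be told apart.

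Among list members outside the leading 30 a few were called in opposite directions in the fractions, and their interactions, computed in the same fit, were not part of the planned comparisons. Agt was higher in subcutaneous plated cells (log2 difference 2.62) and lower in subcutaneous adipocytes (-2.88, adjusted p = 8.94e-08), which read 1952 to 2360 against 14663 to 18882. Il1r1 differed by 1.37 and -1.25, Lcn2 by 1.43 and -1.68, and Bdnf by -1.86 and 1.55. The dimmer Lcn2 probe set did not reverse, at 0.17 in plated cells and 0.59 in adipocytes, with no call in either fraction. The collagen VI chains Col6a1 and Col6a2 were called at 1.20 and 0.97 in plated cells and at -0.75 and -0.83 in adipocytes. Col1a1, uncalled in plated cells, was higher in subcutaneous adipocytes by 2.22 (adjusted p = 9.86e-08). Smooth muscle genes that led the plated comparison were dim in adipocytes of both depots, with Cnn1 at 82.0 to 153 and 21.2 to 57.8. Over their whole list, 0 of 22 tested members were higher in subcutaneous and 4 in intraabdominal adipocytes. The summed signal of the 26 on the array was 38248 to 45879 against 58128 to 63257, with no overlap. In the interferon list 16 of 31 tested members were higher in subcutaneous and 0 in intraabdominal adipocytes (median 0.82). Of all probe sets 3.97% were called higher in subcutaneous adipocytes. In plated cells the list had 7 higher in subcutaneous cells and a median of 0.25.

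**Figure D5:**
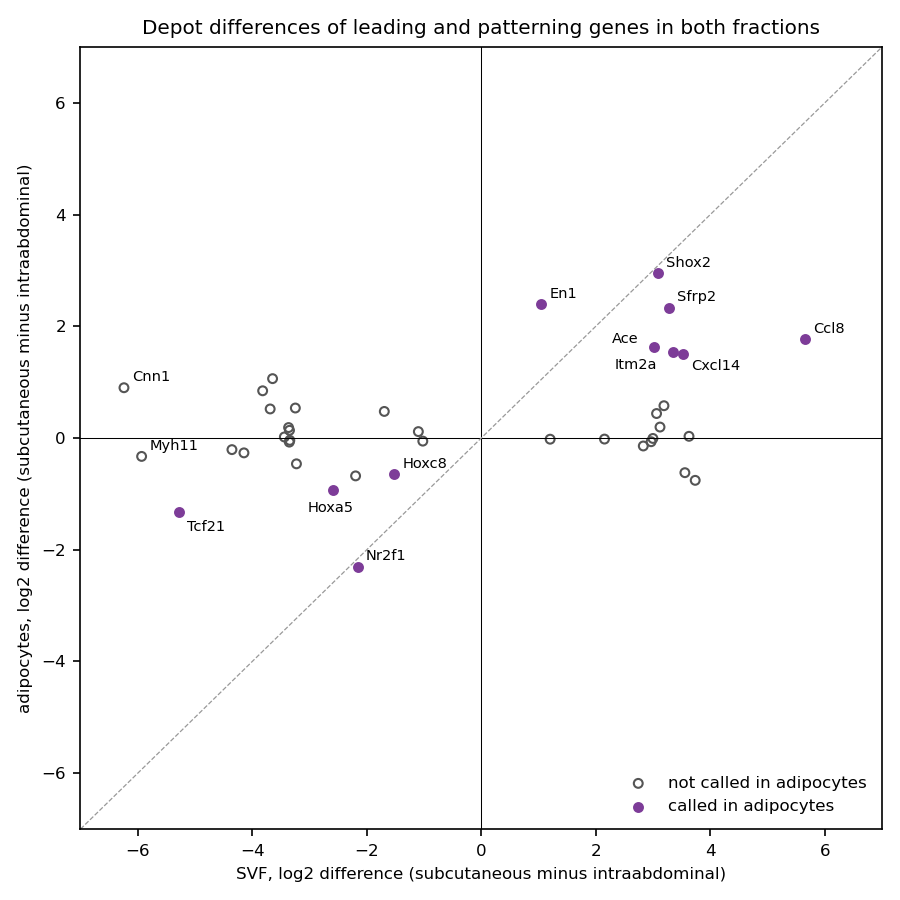
Log2 difference, subcutaneous minus intraabdominal, in plated stromal-vascular cells (horizontal) and in adipocytes (vertical), each from 3 against 3 arrays, of the 30 leading genes and the called Hox and patterning genes. Filled points were called in adipocytes and are labelled, along with Cnn1 and Myh11, and the dashed line marks equal differences. Shox2 and Sfrp2 are high on both axes, whereas Cnn1 lies at -6.24 and 0.90.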

How the data were processed

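Messenger RNA was measured on 12 one-colour Affymetrix expression arrays, 3 per group, from 15 µg of RNA each per the labels. The deposited values are a linear intensity per probe set, which the authors computed with MAS5 per the submitters' processing notes; the sources used here do not give its version or detection calls. They needed no further scaling: trimmed means of all arrays agreed to a ratio of 1.00017, and 0 pairs of arrays were identical. The number of arrays limits the precision. Leaving out 66 control probe sets left 12422, of which the platform annotation, which can be old, gave 10833 a single symbol, 396 several and 1193 none here.

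limma 3.58.1 in R 4.3.3 fitted 4 group means on all 12 arrays to log2 of the signal plus 40.09, the 10th percentile of all values, with the lowest 30% of probe sets by mean left out (eBayes with trend, 8 residual and 6.17 prior degrees of freedom). All adjusted p-values are limma's after Benjamini-Hochberg adjustment over 8695 probe sets, and a call is an adjusted p under 0.05. Errors after ± on log2 differences are SE, with a median of 0.241. They rest on 1 spread over all 12 arrays, to which the adipocytes contribute. Median SDs on the log2 scale were 0.177 and 0.217 in subcutaneous and intraabdominal plated cells, and 0.303 and 0.243 in the adipocytes. The probe set of highest mean stood for a gene.

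The samples and the 43 gene lists were chosen with earlier results of these data known, so list counts are descriptions. Genes were named by rule: the 15 largest called, non-overlapping differences in each direction with the brighter group at or above 496, the overall median, the 8 smallest p and first 4 members of each list, and all called Hox and patterning genes. The text takes part of these. Des, Actn1, Myl9, Vcl, Pdgfrb, Rgs5, Notch3, Fhl1, Fhl2, Ankrd1, Actc1, Mrtfa, Ccl1, Lbp, Itih5, Timp1, Col4a5, Col14a1, Hoxa6, Hoxa9, Bdnf, H2-Q4, Tapbp and Sod2 lay outside it and were chosen after their values were seen.

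Tested on simulated data with 200 of 8695 probe sets changed, the steps recovered 48% of 2-fold and 94% of 4-fold changes, and 4.05% of calls were false. The simulated probe sets were independent and had the same spread in all groups, so these rates may not hold for the real arrays. Promoter sequences are from RefSeq, GRCm38.p6, and genes without a window are not analysed here. The alternatives were other pseudocounts, filters, scalings, array weights, the plated arrays alone, a replicate block and leaving out each array. Same-numbered arrays of the depots deviated with correlations of 0.098, 0.009 and 0.110, and differently numbered ones with -0.171 to 0.099. So few values cannot decide whether the numbers pair the arrays, and they were not taken as pairs.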

Additional observations from a re-analysis of the deposited data

Results flagged for a closer look

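In 27 of the 30 leading genes the interaction of depot with fraction was called (limma, adjusted p from 1.02e-06 to 0.00679). The genes were chosen for large depot differences in plated cells, which the interaction contains, so the choice favours a call and the share of all probe sets called, 8.43%, does not correct for it. The values are a description. They give the log2 depot difference in plated cells minus that in adipocytes, each over 3 against 3 arrays. Culture went with the fraction, and its part was not tested.

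On the intraabdominal side the contractile genes stood at -7.14 for Cnn1, -5.6 for Myh11 and -3.55 for Actg2. The transcription factors Bnc1 and Tcf21 stood at -4.71 and -3.95. Secreted products were Cck at -4.66, Igfbp2 at -3.88, Tnfrsf11b at -3.78, Timp3 at -3.49 and Igfbp3 at -3.28. The retinoic acid enzyme Aldh1a3 was at -4.15. The remaining genes were Vamp5, a vesicle protein of muscle, at -4.21, Kcnab1, a potassium channel subunit, at -3.46, Shroom3, which shapes epithelial cells through actin, at -3.3 and the protease Adam8 at -2.77.

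On the subcutaneous side the chemokines stood at 3.88 for Ccl8, 2.97 for Ccl11 and 2.01 for Cxcl14. The protease inhibitors Serpinb2 and Serpina3n stood at 4.49 and 4.18, Lrg1, a plasma glycoprotein, at 2.93 and Rarres2 at 2.62. Dpt was at 2.61, the propeptide-cleaving enzyme Pcsk5 at 3.03, and the membrane proteins Emb and Itm2a at 3.01 and 1.8. The muscle light chain Myl1 was at 3.6.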

How the results depend on the processing

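Of 254 called genes given or named by rule, 200 kept call and direction in each of the 16 alternatives that tested them (each array left out is 1; 30 of the 254 were not tested in at least 1), 54 lost the call in at least 1, of which 51 without 1 array, and 0 changed direction. The count of 1125 probe sets ranged from 765 to 919 with 1 array left out, and rose to 1952 with array quality weights (1008 higher and 944 lower in subcutaneous cells). It was 1627 with the 6 plated arrays alone. With the replicate number as a block it was 1043, but it is not known whether the numbers pair the arrays. Centring each array on its median moved no gene median by over 0.1 and put 42.8% of calls higher in subcutaneous cells, 50.1% otherwise. Lower below means higher in intraabdominal cells. With array weights the lower members became 14 for macrophage, 4 for endothelial, 5 for Hox, 7 for cytokine, 9 for collagen and 1 for interferon lists, and 7 TGF beta and 9 precursor genes were higher. With the 6 plated arrays alone the lower members were 14 for macrophage, 8 for cytokine, 10 for collagen and 2 for interferon lists, and 7 TGF beta and 7 precursor genes were higher. In both settings 5 precursor and 3 Wnt genes were lower. Higher TGF beta genes were 2 without the intensity trend and with the replicate block, and 1 with centring, where 1 interferon gene was lower. Leaving out the lowest 50% of probe sets, which tests fewer genes, left 2 mesothelial, 3 patterning and 5 protease genes lower, and no filter added 1 higher Hox gene. At an adjusted p under 0.01 there were 3 endothelial, 4 acute phase, 5 proteoglycan, 1 TGF beta and 2 IGF genes higher and 5 protease and 2 IGF genes lower. Without 1 array the higher members ranged from 3 to 6 for endothelial, 4 to 6 for acute phase, 1 to 3 for TGF beta and 2 to 4 for IGF genes, and the lower from 5 to 6 for proteases, 2 to 4 for IGF, 0 to 1 for interferon and 1 to 2 for adipocyte genes. The uncalled differences that changed sign were Col1a1 (-0.25) and Col1a2 (-0.29) with quantile scaling, and Timp1 with quantile scaling (-0.18), array weights (-0.031) and centring (-0.013). With 1 array left out Timp1 ranged from -0.070 to 0.13, Cd68 from -0.27 to 0.18, Pecam1 from -0.19 to 0.85, Hoxa6 from -0.12 to 0.20 and Hoxa9 from -0.15 to 0.48. Ccl2, Il6, Saa3, Tgfb1, Notch3, Ifit1 and Adgre1, uncalled in the report, were called with the 6 plated arrays alone. Causes were not tested. Genes near the floor, such as Cnn1 in subcutaneous cells, have folds set partly by the added 40.09.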

Other observations

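Cell cycle and energy genes not described above were counted beside the 13.9% of all genes called. Of 37 tested cell cycle genes 1 was higher in subcutaneous and 6 in intraabdominal plated cells (18.9%, median -0.29). The 6 fell to 3 without intraabdominal or subcutaneous array 3 and rose to 13 with the 6 plated arrays alone. Ccnb2, a mitotic cyclin, read 1843 to 2223 against 3230 to 3552. Among 18 fatty acid oxidation genes 1 was higher in subcutaneous and 5 in intraabdominal cells (33.3%, median -0.28), and the 5 fell to 3 without intraabdominal array 1 or 3 and rose to 8 with array quality weights. Cpt1a, which admits long-chain fatty acids to mitochondria, read 2718 to 3450 against 7942 to 8652. Of 15 cholesterol synthesis genes 3 were higher in subcutaneous and 0 in intraabdominal cells (20%), 5 and 0 at limma's unadjusted p under 0.05. But the 3 fell to 1 without any 1 of the 6 plated arrays and to 0 with each array centred on its median.

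Markers of other tissues were also counted. With limma, calls were made for 0 of 8 lymphocyte, 10 keratinocyte and 5 erythroid markers tested, with 1, a keratinocyte one, at an unadjusted p under 0.05. Without intraabdominal array 1, 1 lymphocyte marker was called. Of 7 epididymis and testis markers tested 1, Gpx5, was higher in subcutaneous and 0 in intraabdominal cells (14.3% against 13.9% of all genes). The Gpx5 call was lost without any 1 of the 6 plated arrays. Of 14 skeletal muscle markers 3 were higher in subcutaneous and 1 in intraabdominal cells (28.6%). The latter count was 0 (limma) without array 2 or 3 of either depot. The muscle actin Acta1 read 2891 to 3290 against 1344 to 1618. The summed signal of 22 such markers was 16399 to 17622 against 9820 to 11848. Of 9 Schwann cell and nerve markers tested 2 were higher in intraabdominal cells and 7 were not called (22.2% against 13.9% of all genes). Their median was -0.05. The summed signal of the 11 on the array was 23967 to 27103 in subcutaneous and 41490 to 43445 in intraabdominal cells, without overlap. Among the called was the myelin protein Pmp22 at 17325 to 19832 against 32866 to 34735.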
